A study of Rattus norvegicus with 46 samples.

Results

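Solute carriers are membrane proteins that move ions, nutrients, metabolites and neurotransmitters across cell and organelle membranes. Most of their gene symbols begin with Slc and a family number, and the genes with such symbols are described here. In heart muscle they carry the nucleotides, phosphate and metabolites that pass between mitochondria and cytosol, set intracellular pH and chloride, and bring in amino acids and osmolytes. Members were the probe sets of the rat array annotated to exactly 1 Slc symbol, with Slc2a1, Slc2a4, Slc16a1, Slc6a8, Slc8a1, Slc25a20 and Slc27a1 left out, and each gene was read from its probe set with the highest mean over all arrays. This gave 113 genes of 37 families, from 167 probe sets, among 4736 genes with 1 symbol and 8740 probe sets in all. No member value was below 16, the floor used before taking logs, and the members' mean intensities ran from 91 for Slc16a12 to 32677 for Slc25a4. Of the 113 members, 49 had a mean below the median of all probe sets.

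All animals were male Wistar rats, with ages of the adults not given in the sources used here, and each of the 46 arrays held left ventricular RNA pooled from several animals. Hypertrophy was produced in 5 models. For aortic banding, a clip around the ascending aorta, hearts were taken after 6, 12 or 16 weeks (2 arrays per time) and 30 weeks (4 arrays). Myocardial infarction by ligation of the left anterior descending artery gave 4 arrays at 3 weeks and 4 at 9 weeks, with the scar removed and large transmural infarcts alone used, and an aorto-caval shunt gave 2 at 3 weeks and 2 at 8 weeks. Angiotensin II and Ditpa, a thyroid hormone analogue, were given for 2 weeks (2 arrays each). Every surgical time point had 2 sham arrays, the hormone groups shared 2 vehicle arrays, and 2 further arrays held neonatal left ventricle, from hearts taken 3 days after birth. There were thus 26 hypertrophic, 18 adult control and 2 neonatal arrays. Differences are given on the log2 scale ± SE from limma, and calls required a Benjamini-Hochberg adjusted p, taken over all 8740 probe sets, below 0.05. Because the RNA was pooled, these p-values measure the spread between pools. In pooled bulk RNA, a change in the share of a cell type and a change in RNA per cell cannot be told apart.

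The cardiomyocyte markers Myh6, Myl2, Tnnt2 and Actc1 were bright on all groups of arrays, the mean log2 level of 10 such markers lying between 13.74 and 14.84. The 9 fibroblast markers, which include collagens and Postn, were higher on average over the treated groups by a median of 0.39 log2, with 7 of 9 called, and by 1.45 in the neonatal arrays, with 6 called higher and 1 lower. Their mean log2 level spanned 10.88 to 11.77 in controls, 11.16 to 12.67 in hypertrophic and 12.40 to 12.99 in neonatal arrays. Of 6 macrophage markers 3 were higher on average (median 0.25, with Lyz2 at 0.97) and 3 for infarction (median 0.46), and 2 were lower in neonatal arrays (median -0.24). Their mean log2 level spanned 10.63 to 11.51 in controls, 11.04 to 12.29 in hypertrophic and 10.47 to 10.71 in neonatal arrays. All 3 atrial markers were higher in neonatal arrays (Myl7, Myl4 and Nppa, median 1.39), at 13.71 to 13.84 against 11.28 to 12.14 in controls, while 1 of 3, Nppa, was called on average. The brightest probe sets of the array also shifted together. The median of the 100 brightest was -0.55 for angiotensin II, -0.57 for Ditpa, -0.62 for neonatal and -0.34 for the shunt at 3 weeks, against 0.47 and 0.33 for banding at 6 and 16 weeks. After quantile normalization these 6 medians lay between -0.09 and 0. That normalization gives all arrays the same set of values, so medians near 0 follow from it whatever the shifts were. It acts likewise on bright members and on the bright cardiomyocyte markers below. The part of these shifts in the results below was not tested, and the values are given again where a member is among the brightest.

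Over the 10 treated groups weighted equally, 1 member rose and 2 fell among 113. The adenine nucleotide translocator gene Slc25a5 rose, while Slc4a3, the chloride-bicarbonate exchanger of heart and brain, and Slc37a1, a glucose-6-phosphate carrier of the endoplasmic reticulum, fell. The 3 calls are 2.65% of the members, against 5.21% of all probe sets (3.64% higher and 1.57% lower). The median difference was 0 over members and 0.007 over all probe sets, and 11 members (9.73%) had an unadjusted p below 0.05 against 15.9% of all probe sets.

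The intensity of Slc25a5 was 4417 to 6917 in the 18 controls, with a median of 6205, and 4553 to 9917 in the 26 hypertrophic arrays, with a median of 7165. Hypertrophic and control arrays therefore overlapped, but 22 of 26 hypertrophic arrays stood above the mean of their own controls. The average difference was 0.24 ± 0.0653 (limma adjusted p = 0.0242). It was 0.47 ± 0.177 for infarction at 9 weeks, where the 4 arrays read 9480, 5906, 7280 and 4553 against shams of 4515 and 4944. Those shams were among the lowest controls, and the infarction arrays at 5906 and 4553 lay below the control median. For angiotensin II the difference was 0.43 ± 0.204, where the arrays read 9917 and 7900 against vehicle arrays of 6497 and 6684. At banding 16 weeks and shunt 8 weeks it was 0.02 ± 0.204 and 0.03 ± 0.204. None of the 10 single groups passed for this gene. After quantile normalization the average was 0.20 (adjusted p = 0.0181). The study lists Slc25a5 among its commonly regulated genes, a choice made on these same arrays, so this count is not independent evidence.

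Slc4a3 read 3893 to 5466 in controls and 3323 to 4735 in hypertrophic arrays, of which 5 of 26 stood above their own controls. Its average was -0.17 ± 0.0406 (limma adjusted p = 0.00869). Slc37a1 read 1668 to 2377 in controls and 1489 to 2016 in hypertrophic arrays, with 3 of 26 above their own controls and an average of -0.14 ± 0.0422 (adjusted p = 0.0381). For both genes the ranges overlapped. Slc37a1 was most negative for the shunt at 8 weeks (-0.37 ± 0.132) and banding at 16 weeks (-0.28 ± 0.132), and was 0.06 ± 0.114 for banding at 30 weeks. The shunt arrays at 8 weeks read 1738 and 1836 against shams of 2243 and 2377. Those shams were the highest of the 18 controls, followed by one at 2139. The next member by p was Slc25a26, the S-adenosylmethionine carrier of mitochondria, at 0.13 ± 0.045 (adjusted p = 0.103, not passing).

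Each of these 3 calls was lost under some other choice of arrays or weights. Without the hormone groups and their vehicle, Slc25a5 (0.22, limma adjusted p = 0.067) and Slc37a1 (-0.15, 0.0531) did not pass, Slc4a3 did (-0.19, 0.00312), and the taurine transporter Slc6a6 was called (0.57 ± 0.157, 0.0251). Without vehicle replicate 1 none passed (adjusted p = 0.0636 for Slc4a3, 0.0779 for Slc25a5 and 0.101 for Slc37a1). Without vehicle replicate 2, Slc25a5 (0.0503) and Slc37a1 (0.0744) were lost. The vehicle arrays are the controls of both hormone groups. Slc37a1 was lost on leaving out any 1 of 19 arrays, with adjusted p from 0.0501 to 0.101. Besides the 2 vehicle arrays these were angiotensin II replicate 2, Ditpa replicate 2, shunt sham replicate 3 and shunt replicate 2 at 3 weeks, shunt sham replicate 4 and shunt replicate 1 at 8 weeks, infarction sham replicate 2 at 3 weeks, infarction sham replicates 5 and 6 at 9 weeks, banding sham replicate 3 and banding replicates 1 and 2 at 6 weeks, banding sham replicate 4 at 12 weeks, banding sham replicate 4 and banding replicate 2 at 16 weeks, and banding sham replicates 5 and 6 at 30 weeks. With the 5 models weighted equally in place of the 10 groups, all 3 were lost (adjusted p = 0.42 for Slc4a3, 0.138 for Slc25a5 and 0.235 for Slc37a1) and the bright gene Slc25a3 was the single call (-0.26 ± 0.0629, 0.0407), a weighting in which the hormone groups count more. Slc25a3 is the member second in brightness, and in those groups the 100 brightest probe sets had medians of -0.55 and -0.57, while Slc25a3 was at -0.02 and -0.01 after quantile normalization.

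**Figure D1:**
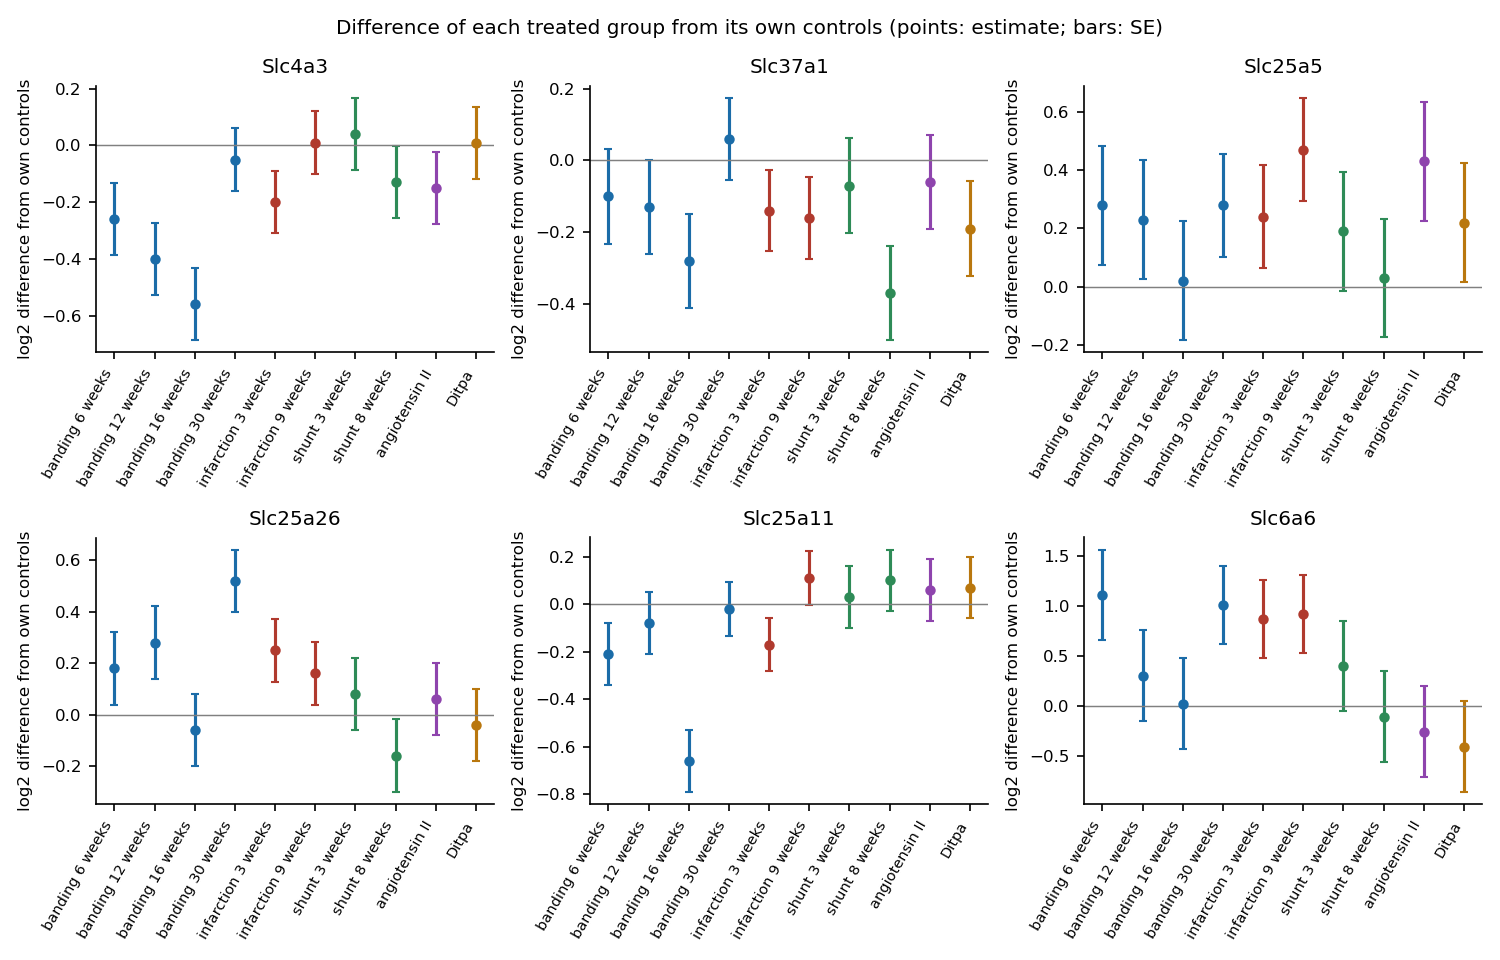
Log2 difference (y axis) of each of the 10 treated groups (x axis) from its own controls for 6 members, with points for the limma estimate, bars for its SE and a colour for each model. Slc4a3 and Slc25a11 are lowest for banding at 16 weeks (-0.56 and -0.66), Slc25a26 is highest for banding at 30 weeks (0.52), and Slc25a5 lies above 0 in all 10 groups.

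Averaged over the 4 time points of banding, Slc4a3 and Slc25a11, the carrier that exchanges 2-oxoglutarate for malate across the inner mitochondrial membrane, fell and Slc25a26 rose. These 3 are 2.65% of members, against 5.26% of all probe sets (3.28% higher and 1.98% lower). For Slc4a3 the banding arrays read 4193 and 3723 at 6 weeks, 3476 and 4213 at 12 weeks, and 3683 and 3681 at 16 weeks. The matching shams read 4945 and 4548, then 4690 and 5431, then 5389 and 5466, so at these 3 times every banding array lay below both shams. At 30 weeks the banding arrays read 4025, 4194, 3752 and 4679 against 4369 and 4197, and the groups overlapped. The 4 shams at 12 and 16 weeks, at 4690 to 5466, were among the highest controls, the other 14 controls reading 3893 to 4945. The differences were -0.26 ± 0.127, -0.40 ± 0.127, -0.56 ± 0.127 and -0.05 ± 0.11 in order of time, and their mean was -0.32 ± 0.0613 (limma adjusted p = 0.00108).

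Slc25a11 read 8329 and 7907 at 16 weeks of banding against 11328 and 14497 in the shams, a difference of -0.66 ± 0.13 (limma adjusted p = 0.0116). Those shams span the top of the control range, the other 16 controls reading 7612 to 11560. At 6, 12 and 30 weeks the difference was -0.21 ± 0.13, -0.08 ± 0.13 and -0.02 ± 0.113, and the mean over banding was -0.24 ± 0.0629 (adjusted p = 0.0179). A second, dimmer probe set of Slc25a11 gave -0.08 ± 0.0569 for banding (adjusted p = 0.562). The brightest probe set lost the banding call without banding sham replicate 3 or banding replicate 1 at 6 weeks, banding sham replicate 3 at 12 weeks, or banding sham replicate 4 or banding replicate 2 at 16 weeks (adjusted p from 0.0504 to 0.0996), and with array weights (0.0722).

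Slc25a26 read 4802, 4997, 4428 and 4469 at 30 weeks of banding against 3204 and 3293 in shams, so all 4 banding arrays were above both shams. The difference was 0.52 ± 0.122 (limma adjusted p = 0.0223). At 6, 12 and 16 weeks it was 0.18 ± 0.141, 0.28 ± 0.141 and -0.06 ± 0.141, and the mean over banding was 0.23 ± 0.0681 (adjusted p = 0.0383). That mean lost its call after quantile normalization (0.20, adjusted p = 0.0643), with array weights (0.15), without the hormone groups (0.0594) and on leaving out any 1 of 11 arrays (adjusted p from 0.0514 to 0.117). These were sham replicate 4 and banding replicate 2 at 6 weeks, sham replicate 3 and banding replicate 2 at 12 weeks, sham replicates 3 and 4 and banding replicate 1 at 16 weeks, and sham replicates 5 and 6 and banding replicates 1 and 2 at 30 weeks. The fourth member by p, Slc13a2, a sodium-coupled dicarboxylate carrier, stood at 0.16 ± 0.0556 (adjusted p = 0.0965, not passing).

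Whether banding effects differed between the 4 time points was tested with a moderated F, an analysis added after the values were seen. No member passed, and no probe set of the array did (0% called). Of the members, 10 had an unadjusted p below 0.05, a count given without the share of all probe sets. The smallest member p was that of Slc25a11 (adjusted p = 0.617). A time at which a gene was called is therefore not shown to differ from the others.

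**Figure D2:**
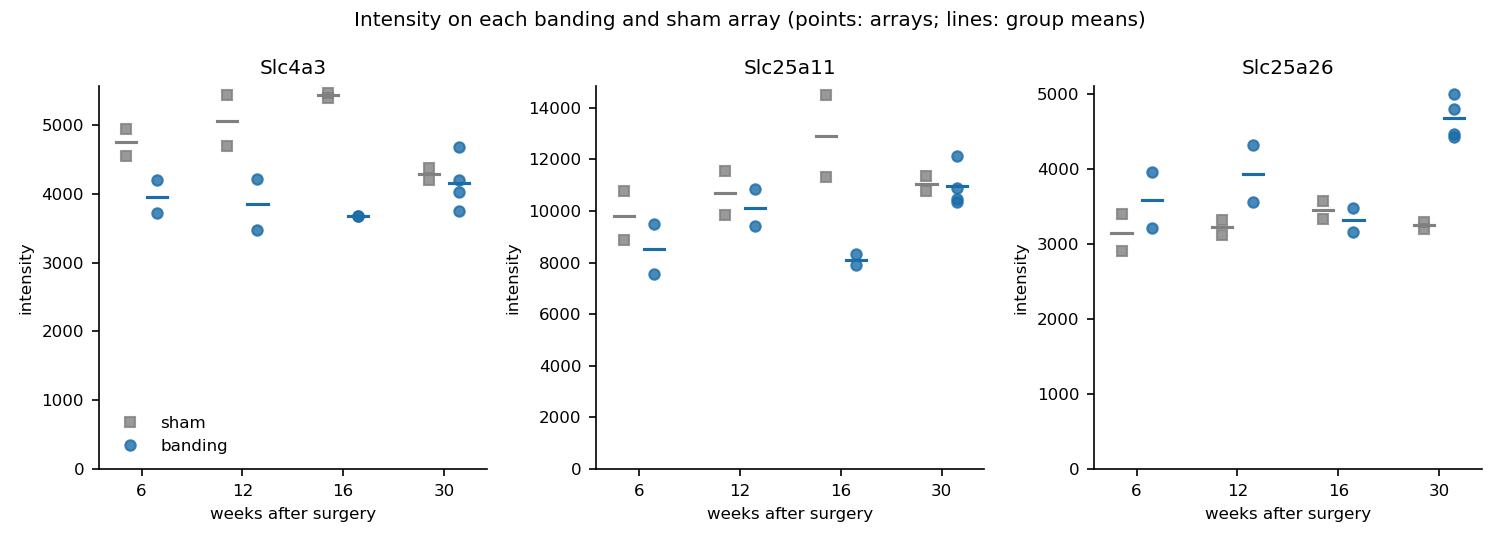
Intensity (y axis, from 0) on every banding array (circles) and sham array (squares) at 6, 12, 16 and 30 weeks (x axis) for Slc4a3, Slc25a11 and Slc25a26, with lines at group means. The shams of Slc4a3 at 12 and 16 weeks read 4690 to 5466, and the Slc25a26 banding arrays at 30 weeks, at 4428 to 4997, are all above their shams.

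Taken by single group, 4 member calls were made in the 10 comparisons. At banding 16 weeks they were Slc25a11 and Slc4a3 (1.77% of members, against 0.709% of all probe sets). Slc25a26 at banding 30 weeks was 1 of 113 members, or 0.885%, against 1.12% of all probe sets. At infarction 9 weeks it was Slc22a6, an organic anion exchanger best known from the kidney, which rose by 0.71 ± 0.182 (limma adjusted p = 0.0354) where 1.92% of all probe sets were called. Its 4 arrays read 256, 314, 586 and 358 against shams of 235 and 207, and all 4 were above both shams. The 18 controls of the series together read 207 to 341, and the shams at 235 and 207 were the lowest of them, the next being 288. Of the 4 infarction arrays, 2 lay within the range of the controls. Without infarction replicate 3, the array at 586, it was 0.48 (adjusted p = 0.0953), and without sham replicate 5 or 6 the adjusted p was 0.213 or 0.287. It was also lost after quantile normalization (0.119) and without the hormone groups (0.0555).

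Leaving out an array of a pair leaves a single array, which the fit assumes to vary like the other groups. The 16-week call of Slc4a3 (-0.56, limma adjusted p = 0.0337) was lost on leaving out any 1 of the 4 arrays of that comparison, with adjusted p of 0.0957 and 0.471 without sham replicates 3 and 4 and 0.141 and 0.205 without banding replicates 1 and 2. That of Slc25a11 was lost without sham replicate 4 (0.651), banding replicate 1 (0.0505) or banding replicate 2 (0.109), and when its probe sets were averaged (-0.34, adjusted p = 0.0803). The 30-week call of Slc25a26 was lost after quantile normalization (0.43, adjusted p = 0.0602) and without sham replicate 5 (0.404), sham replicate 6 (0.116), banding replicate 1 (0.0607) or banding replicate 2 (0.0769). No member was called at banding 6 or 12 weeks, where 0.652% and 0.355% of all probe sets were. The same held at infarction 3 weeks (0.206%), shunt 3 weeks (0%), shunt 8 weeks (0.0458%), angiotensin II (0%) and Ditpa (0%). In those 7 comparisons, in the same order, 6, 5, 1, 9, 5, 4 and 3 members had an unadjusted p below 0.05. The shares of all probe sets were 8.27%, 8.89%, 4.58%, 9.65%, 3.74%, 3.49% and 3.2%, and those of members 5.31%, 4.42%, 0.885%, 7.96%, 4.42%, 3.54% and 2.65%. The count of 4 became 10 without shunt 3 weeks replicate 1, which added 6 calls at that time point that rest on 1 remaining shunt array, 2 without banding replicate 1 or banding sham replicate 4 at 16 weeks, 2 after quantile normalization and 18 with array weights.

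For infarction over both time points no member passed, where 1.96% of all probe sets were called, and 7 members (6.19%) had an unadjusted p below 0.05, against 11.1% of all probe sets. The largest difference was that of Slc6a6, the taurine transporter, at 0.90 ± 0.277 (limma adjusted p = 0.099). Its arrays read 1161, 1254, 1827 and 1851 at 3 weeks against shams of 689 and 959. At 9 weeks they read 2453, 2415, 1635 and 946 against 978 and 869. All 4 arrays at 3 weeks and 3 of 4 at 9 weeks were above both shams. Slc6a6 also stood at 1.11 ± 0.453 for banding at 6 weeks, where the arrays read 980 and 1150 against shams of 312 and 777. The sham at 312 was the lowest of the 18 controls. At 30 weeks of banding Slc6a6 was at 1.01 ± 0.392, where 2 of the 4 arrays, at 1312 and 2303, were far above those at 600 and 716. It varied more within groups than any other member, with an SD of 0.49 log2 against a member median of 0.147. Neither its mean over banding (0.61 ± 0.219, adjusted p = 0.109) nor its average over the 10 groups (0.39 ± 0.145, adjusted p = 0.142) passed, though the average without the hormone groups did, as given above.

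The other members with the smallest p for infarction were Slc35f6 at 0.21 ± 0.0665 (limma adjusted p = 0.104), Slc25a5 at 0.36 ± 0.125 (0.177) and Slc28a2, a sodium-coupled nucleoside carrier, at 0.34 ± 0.122 (0.192). For the shunt over both time points no member passed either, where 0.0458% of all probe sets were called. The smallest p belonged to Slc24a2, a potassium-dependent sodium-calcium exchanger, at -0.44 ± 0.177 (adjusted p = 0.487), and to Slc10a1, a bile acid carrier known from liver, at -0.37 ± 0.15 (0.487). Slc4a7, a sodium-bicarbonate cotransporter, stood at -0.21 ± 0.0861 (0.492) and Slc37a1 at -0.22 ± 0.0932 (0.492). For the shunt, 6 members (5.31%) had an unadjusted p below 0.05, against 8.6% of all probe sets.

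The bright mitochondrial carriers Slc25a4, the heart and muscle adenine nucleotide translocator, and Slc25a3, the phosphate carrier, had the smallest p of all members in both hormone groups without passing. Slc25a3 read 19277 and 19676 with angiotensin II and 19243 and 19352 with Ditpa, against vehicle arrays of 31173 and 26180. The difference was -0.55 ± 0.155 (limma adjusted p = 0.465) and -0.57 ± 0.155 (0.344). Slc25a4 read 18695 and 19243 with angiotensin II and 18932 and 18801 with Ditpa, against 30743 and 25910, or -0.57 ± 0.187 (0.581) and -0.58 ± 0.187 (0.45). All 4 hormone arrays thus lay below both vehicle arrays for both genes. These probe sets rank 37 and 53 in brightness of 8740, and their values lie close to the medians of the 100 brightest, -0.55 and -0.57. After quantile normalization Slc25a3 was at -0.02 and -0.01 and Slc25a4 at -0.08 and -0.05. As given above, medians near 0 for the brightest probe sets follow from that normalization. With array weights all 4 differences passed (limma adjusted p = 0.00189 and 0.00626 for Slc25a3, 0.00678 and 0.0194 for Slc25a4), as did that of Slc25a5 for angiotensin II (0.0484). Under that setting 194 of all 8740 probe sets were called for angiotensin II and 152 for Ditpa, against 0 for each without it. The members called were 3 of 113 for angiotensin II and 2 of 113 for Ditpa.

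The study's methods name a rank sum test on log fold changes of the hypertrophic arrays with Bonferroni correction, without stating the values they were set against. Here each control array was also divided by the mean of its own control group, and the 26 hypertrophic log2 ratios were ranked with these 18. This version of the test passed no member, where it passed 1.34% of all probe sets. By the unadjusted exact two-sided p, 16 members (14.2%) were below 0.05. The share of all probe sets below it is not given, so this count is not read as a result about the members. Slc25a5 came nearest (exact test, Bonferroni p = 0.37). Set against 0, its 26 ratios passed a signed rank test (exact, Bonferroni p = 0.0182), in which Slc37a1 stood at 0.08. Slc37a1 passed the rank sum test after quantile normalization (0.0299). Both tests take the ratios as independent, though arrays of a group share controls and both hormone groups share the vehicle arrays. The ratios of a control group were also taken to that group's own mean, which ties them to each other. The exact p-values of both tests are therefore not read as the strength of evidence for a member.

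A moderated F for any difference between the 5 models passed no member, where it passed 0.275% of all probe sets. Unadjusted, 4 members had a p below 0.05, a count given without the share of all probe sets. The smallest p was that of Slc25a3 (adjusted p = 0.288). An ordinary one-way analysis of variance on the 26 ratios, also adjusted over all probe sets, called Slc25a3 alone among members (adjusted p = 0.00131), whose hormone values lie at the medians of the brightest probe sets as given above. The share of all probe sets called by the analysis of variance is not given. It takes the ratios as independent, though arrays of a group share controls and both hormone models share the vehicle arrays. Neither test shows Slc4a3 (moderated F adjusted p = 0.782) or Slc6a6 (0.975) to differ between models.

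Several members have more than 1 probe set, and the choice of the brightest decided some calls. Among 39 such genes with 93 probe sets, no brightest probe set was called for the average effect, but dimmer ones of Slc7a1 and Slc1a3 were. These are 2 of the 93, where 5.21% of all probe sets were called. For Slc7a1, the cationic amino acid carrier, the dimmest of 3 probe sets (mean intensity 596) read 442 to 647 in controls, 501 to 772 in hypertrophic and 794 to 851 in neonatal arrays. It was above its own controls in 23 of 26 hypertrophic arrays, rose by 0.17 ± 0.0393 on average (limma adjusted p = 0.00648) and by 0.61 ± 0.0914 in neonatal ventricle (4.53e-06). The brighter probe sets of Slc7a1, with means of 1024 and 1009, gave 0.02 ± 0.0461 (adjusted p = 0.889) and -0.06 ± 0.0368 (0.478) on average. For Slc3a2, the heavy chain that pairs with amino acid carriers, the brightest probe set was at 0.03 ± 0.0436 (adjusted p = 0.823) and the dimmer at 0.19 ± 0.0569 (0.0501, not passing), with 23 of 26 arrays above their controls. Slc3a2 and Slc7a1 are also on the study's list of commonly regulated genes, chosen on these arrays.

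For Slc1a3, a glutamate carrier, a dim probe set with a mean of 136 read 75 to 169 in controls and 72 to 261 in hypertrophic arrays. It rose by 0.34 ± 0.0901 on average (limma adjusted p = 0.0179) and by 0.65 ± 0.136 for banding (0.00278), while the brightest, with a mean of 2487, was at 0.00 ± 0.0401 (0.999) and 0.04 ± 0.0607 (0.814). A dim probe set of Slc22a3, an organic cation carrier, with a mean of 104, was called for banding at -0.65 ± 0.132 (0.00207). The brightest of that gene, with a mean of 3360, was at -0.02 ± 0.0741 (0.946). For banding 4 of the 93 probe sets were called, where 5.26% of all probe sets were. In neonatal ventricle 19 of the 93 probe sets were called, where 32.6% of all probe sets were. They belonged to 16 of the 39 genes, and 11 of these genes were called in a dimmer probe set alone. Among the 11 were Slc25a11 (-0.49 ± 0.0877 against 0.05 ± 0.0968 in the brightest), Slc25a10 (0.72 ± 0.137 against 0.15 ± 0.103) and Slc4a2 (0.39 ± 0.0791 against 0.04 ± 0.098). Such genes are not among the neonatal calls counted from brightest probe sets. All probe sets were called for Slc35b1 and Slc6a4, the latter in opposite directions. The probe sets of a gene went the same way for 20 of 39 genes on average and for 25 of 39 in neonatal ventricle.

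**Figure D3:**
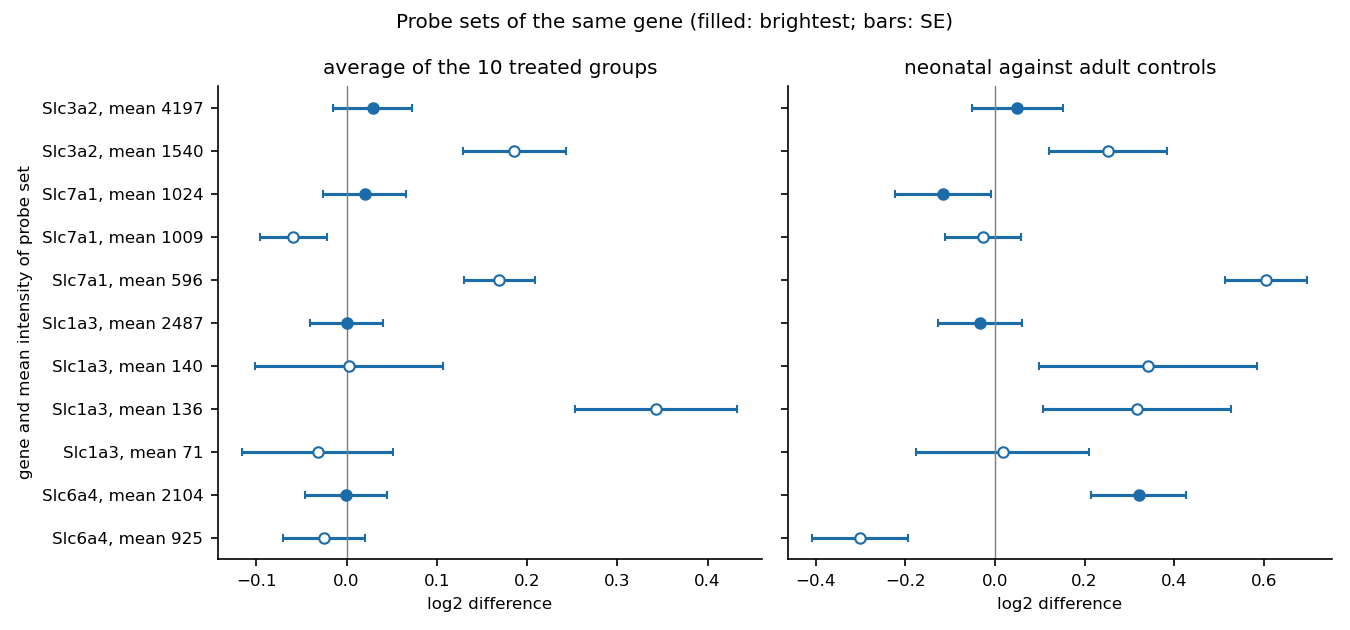
Log2 difference (x axis) with its SE for each probe set (y axis, with its mean intensity) of Slc3a2, Slc7a1, Slc1a3 and Slc6a4, averaged over the 10 treated groups on the left and for neonatal against adult controls on the right, with the brightest probe set filled. The dimmest Slc7a1 probe set is at 0.17 and 0.61, and the pair of Slc6a4 probe sets lies at 0.32 and -0.30 in neonatal ventricle.

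Neonatal and adult control ventricle differed in more members than any hypertrophy comparison called. Of 113 members 10 were higher and 21 lower in neonatal ventricle, and 82 did not pass. The 31 calls are 27.4% of members, against 32.6% of all probe sets. The higher calls are 8.85% of members (15.5% of all probe sets) and the lower 18.6% (17% of all probe sets). The median difference was -0.074 both for members and for all probe sets. In 7 members both neonatal arrays were above all 18 adult controls and in 12 both were below. Over all probe sets these shares were 12.4% and 10.3%, against 6.19% and 10.6% of members.

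The adenine nucleotide translocators went opposite ways. Slc25a5, the form tied to growing cells, read 12946 and 14244 in neonatal arrays against 4417 to 6917 in adult controls, a rise of 1.21 ± 0.152 (limma adjusted p = 1.96e-07). Slc25a4 read 22964 and 19617 against 22117 to 43940, a fall of 0.68 on the log2 scale (-0.68 ± 0.14, adjusted p = 0.000303), and 1 of the 2 neonatal arrays lay above the lowest control. Relative to the mean of the control groups, the within-array change of Slc25a5 over that of Slc25a4 was 1.71 and 2.07 log2 in the neonatal arrays, -0.67 to 0.86 in the controls and -0.61 to 1.62 in the hypertrophic arrays. These within-array changes are as deposited. They include any shift of the 100 brightest probe sets, which hold Slc25a4 but not Slc25a5. Slc25a3 read 24137 and 19375 against 22635 to 38420 (-0.54 ± 0.116, adjusted p = 0.000458). The falls of Slc25a4 and Slc25a3 stand beside a median of -0.62 over the 100 brightest probe sets and of -0.66 over the 10 cardiomyocyte markers, 9 of which were lower, and that marker median was -0.01 after quantile normalization. After quantile normalization Slc25a4 was at -0.20 (0.00723) and Slc25a3 at -0.09 (0.397), while Slc25a5 was at 1.07 (3.1e-08). Values near 0 for the brightest probe sets as a group follow from that normalization. Without neonatal replicate 2, Slc25a3 was at -0.38 (0.081).

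The promoters of the 2 translocator genes are shown because their transcripts moved in opposite directions, each as 300 bases (250 before to 50 after the RefSeq start, build GRCr8) on the plus strand. Capitals mark the letters GGGCGG and CCAAT on either strand. Slc25a4 lies at chr16:52805271-52805570 and Slc25a5 at chrX:120897366-120897665.
Slc25a4: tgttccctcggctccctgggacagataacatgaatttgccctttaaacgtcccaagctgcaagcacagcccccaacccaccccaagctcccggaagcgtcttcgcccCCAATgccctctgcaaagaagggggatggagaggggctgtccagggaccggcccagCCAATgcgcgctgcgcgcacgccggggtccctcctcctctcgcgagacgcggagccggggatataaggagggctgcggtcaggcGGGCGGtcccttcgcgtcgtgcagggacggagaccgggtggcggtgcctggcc
Slc25a5: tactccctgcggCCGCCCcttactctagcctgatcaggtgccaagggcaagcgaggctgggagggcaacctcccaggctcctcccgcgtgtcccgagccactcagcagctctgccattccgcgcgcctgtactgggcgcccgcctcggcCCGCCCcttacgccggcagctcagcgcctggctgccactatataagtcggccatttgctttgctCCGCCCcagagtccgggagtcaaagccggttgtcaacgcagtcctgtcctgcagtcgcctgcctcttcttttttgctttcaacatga
Slc25a4 holds 1 match to GGGCGG and 2 to CCAAT, and Slc25a5 holds 3 and 0. Neither holds TATAAA or CACGTG in these letters. Of 33469 RefSeq promoters, 33.1% hold GGGCGG, 37.5% CCAAT, 14.2% TATAAA and 6.42% CACGTG. Among the 95 members with a promoter there the shares are 53.7%, 36.8%, 9.47% and 10.5%, and their median GC content is 59.3% against 51.7% for all.

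**Figure D4:**
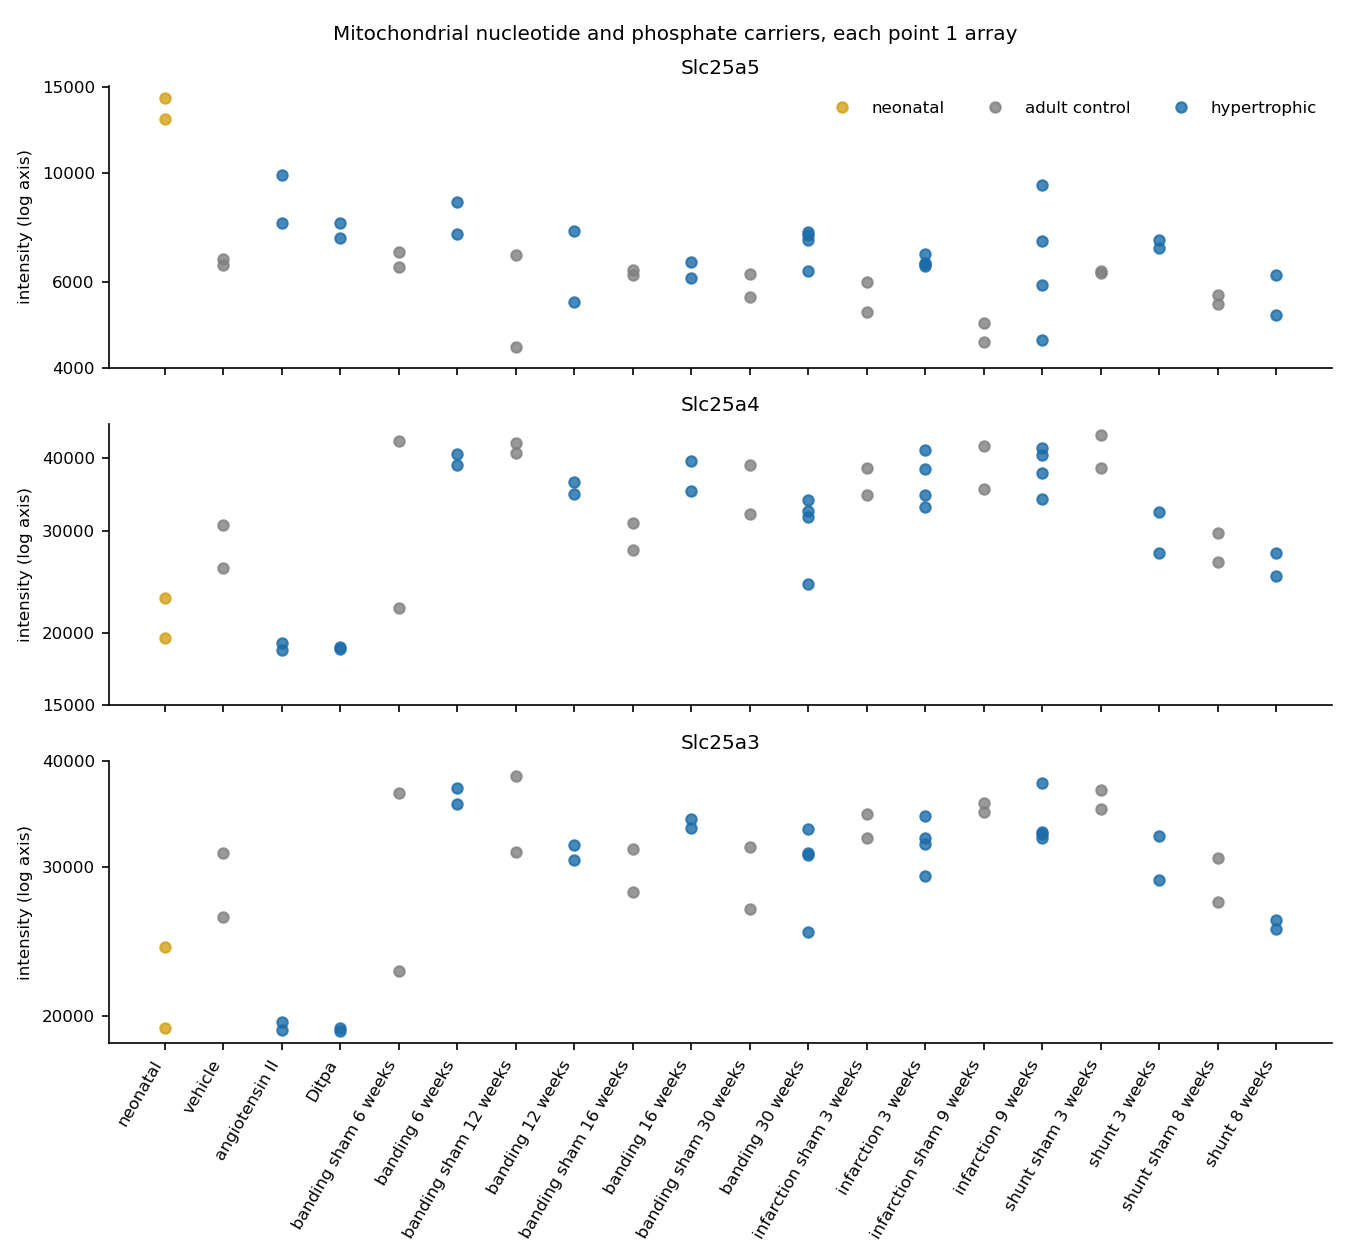
Intensity (y axis, log scale) on each of the 46 arrays by group (x axis) for Slc25a5, Slc25a4 and Slc25a3, with neonatal, adult control and hypertrophic arrays in 3 colours and 1 point per array. The neonatal arrays of Slc25a5 (12946 and 14244) stand above all others, while for Slc25a4 and Slc25a3 the neonatal and hormone arrays lie at or near the bottom.

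Among carriers of monocarboxylates, Slc16a3, the lactate exporter, read 1646 and 2208 in neonatal arrays against 902 to 1327 in adult controls and rose by 0.79 ± 0.0974 (limma adjusted p = 1.35e-07). Slc16a12, a creatine and monocarboxylate carrier, rose by 1.89 ± 0.276 (2.59e-06) but was the dimmest member, reading 293 and 282 against 35 to 106 in 17 controls and 289 in banding sham 12 weeks replicate 3. Slc16a7, a second lactate and pyruvate carrier, fell, reading 251 and 236 against 284 to 435 (-0.48 ± 0.128, 0.00426). Of 6 members of this class 2 were higher and 2 lower, where 15.5% and 17% of all probe sets were.

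Other members that rose were Slc35b1, the ATP carrier of the endoplasmic reticulum, at 4691 and 4057 against 1931 to 3215 (0.73 ± 0.127, limma adjusted p = 4.04e-05), and by 0.98 ± 0.153 in its dimmer probe set. Slc30a4, a zinc exporter, read 288 and 241 against 117 to 241 (0.62 ± 0.223, 0.0325), and Slc20a2, a sodium-phosphate cotransporter, 2652 and 2529 against 1845 to 2394 (0.34 ± 0.0698, 0.000259). Slc25a26 read 4149 and 4065 against 2898 to 3568 (0.31 ± 0.105, 0.0207). Slc12a4, a potassium-chloride cotransporter, stood at 0.27 ± 0.087 (0.016) and Slc25a23, a mitochondrial ATP-magnesium carrier, at 0.24 ± 0.0732 (0.0105). Slc6a4, the serotonin transporter, was at 0.32 ± 0.106 (0.0186) in its brightest probe set and at -0.30 ± 0.107 (0.0293) in the other, so its direction is uncertain, and the mean of its probe sets gave 0.01 (0.924).

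Of the members that fell, Slc41a3, a magnesium transporter, moved most, reading 1299 and 1048 in neonatal arrays against 1459 to 3403 in adult controls, a difference of -1.0 ± 0.211 (limma adjusted p = 0.000422). Slc3a1, the heavy chain of the cystine carrier, read 1424 and 1446 against 1414 to 2839 (-0.66 ± 0.143, 0.000577). Slc24a2 read 359 and 429 against 455 to 733 (-0.61 ± 0.187, 0.0118). In all, 2 of the 3 sodium-calcium exchangers, Slc24a2 among them, were lower, where 17% of all probe sets were. The organic ion carriers Slc22a25 (-0.53 ± 0.198, 0.0402), Slc22a2 (-0.52 ± 0.112, 0.000555) and Slc22a18 (-0.49 ± 0.111, 0.000924) were lower, and of the 19 members of their class 0 were higher and 5 lower, where 15.5% and 17% of all probe sets were.

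The nucleoside carrier Slc28a2 read 960 and 857 against 1040 to 1661 (-0.53 ± 0.148, limma adjusted p = 0.00644). Slc25a17, a carrier of the peroxisomal membrane, read 1743 and 1567 against 1820 to 2707 (-0.47 ± 0.109, 0.00104). Slc4a7 read 1453 and 1339 against 1642 to 2339 (-0.45 ± 0.0907, 0.00023). The remaining 9 lower members lay between -0.40 and -0.27. Slc4a3, which fell with banding, was at -0.05 ± 0.0944 (0.756), and Slc6a6 at 0.45 ± 0.337 (0.328), neither passing.

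**Figure D5:**
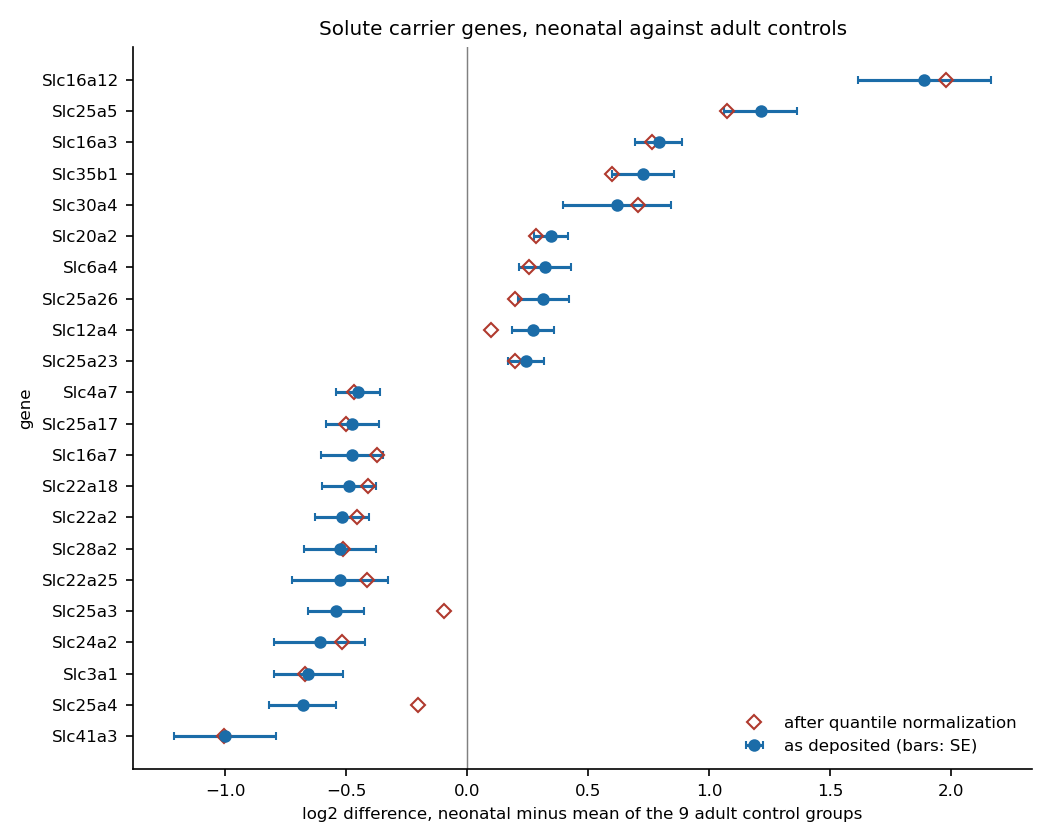
Log2 difference (x axis) of neonatal ventricle from the mean of the 9 adult control groups for the 22 members named for this comparison (y axis), as deposited (filled, bars for SE) and after quantile normalization (open diamonds). Slc16a12 (1.89) and Slc25a5 (1.21) are highest and Slc41a3 (-1.0) lowest, and Slc25a4 and Slc25a3 move from -0.68 and -0.54 to -0.20 and -0.09 after normalization.

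The background for the class counts in neonatal ventricle is 15.5% of all probe sets higher and 17% lower. By class, the 11 mitochondrial carriers had 3 members higher, 3 lower and 5 not passing in neonatal ventricle. The 16 acid-base and chloride carriers had 1 higher and 2 lower, and the 7 metal carriers 1 higher and 2 lower. The 7 nucleoside and nucleotide-sugar carriers and the 13 neurotransmitter and osmolyte carriers each had 1 higher and 1 lower. The 10 amino acid carriers, the 10 members of the sugar carrier families (Slc2, Slc5 and Slc37, with the iodide carrier Slc5a5 and the vitamin carrier Slc5a6 among them) and the 4 vesicular carriers had 1 lower each, and the 7 phosphate, sulphate and carboxylate carriers 1 higher. For the average effect calls fell in the mitochondrial (1 of 11), acid-base and chloride (1 of 16) and sugar family classes (1 of 10). For banding they fell in the mitochondrial (2 of 11) and acid-base and chloride classes (1 of 16). Of all probe sets, 5.21% were called on average and 5.26% for banding.

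The neonatal calls rest on 2 arrays. Counts with 1 left out are given without the share of all probe sets, and are not read as results about the members. Without neonatal replicate 1 the 31 members became 20 and without replicate 2 they became 15, with the remaining neonatal array assumed to vary like the other groups. Of the 22 members named, 5 were lost without replicate 1 (Slc22a25, Slc24a2, Slc25a23, Slc25a26 and Slc30a4, limma adjusted p from 0.176 to 0.344). Without replicate 2, 9 were lost (Slc12a4, Slc16a7, Slc22a25, Slc25a17, Slc25a26, Slc25a3, Slc28a2, Slc30a4 and Slc6a4, from 0.0619 to 0.321). Slc22a25 was also lost without replicate 4 of the shunt sham at 3 weeks or of the banding sham at 6 weeks, replicate 3 of the sham at 16 weeks of banding or replicate 5 of the sham at 30 weeks (0.05 to 0.0517). After quantile normalization 4 of the 22 were lost, namely Slc25a3, Slc12a4 (0.437), Slc22a25 (0.0629) and Slc25a26 (0.141), and 26 of the 31 members were called in both.

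Other lists of transport genes were looked up, with 5.21% of all probe sets called on average and 32.6% in neonatal ventricle as the background for their counts. Of 12 ABC transporters, 1 was called on average, Abcd3 of the peroxisomal membrane, which rose by 0.14 (limma adjusted p = 0.0228), and in neonatal ventricle 2 rose, Abcd3 and Abcc3, and 3 fell, including Abcb1a at -0.46 (0.0112) and Abcb1b at -0.63 (0.000365), the drug efflux pumps. None of 5 organic anion transporting polypeptides was called on average and 1, Slco2a1, was lower in neonatal ventricle. Of 11 partners and regulators of carriers none was called on average, while the transferrin receptor Tfrc rose by 1.18 (0.000102) and Hfe by 0.34 (0.0136), and the kinase Sgk1 was at -0.55 (0.0228), in neonatal ventricle.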

How the data were processed

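The authors hybridised pooled left ventricular RNA to Affymetrix rat arrays and deposited 1 intensity per probe set and array, computed with dChip (perfect match probes only) after invariant rank normalization. Annotation came from GEO's platform table. Of 8740 probe sets 7006 carry 1 symbol, 308 several and 1426 none, and 2 Slc probe sets with several entries were left out. All 113 members matched a RefSeq gene by identifier. Groups came from the sample labels. Intensities were raised to at least 16, put on the log2 scale and fitted with limma 3.58.1 in R 4.3.3 (20 group means, 46 arrays), with Benjamini-Hochberg adjustment over all probe sets and a threshold of 0.05. Array number limits the precision, 2 to 4 per group.

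Named genes were members called for the average, banding, infarction, shunt or neonatal comparison (up to 12 per direction), the 4 with the smallest p where fewer were called, members called in 1 treated group, and the 3 listed by the study. The members and lists were chosen with earlier results of these data known. The script was tested on simulated data. Alternatives are given in the closing section.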

Additional observations from a re-analysis of the deposited data

Results flagged for a closer look

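In the groups of 4 arrays, the highest or lowest array of 13 genes named for hypertrophy was set against the other 3 by its gap as a share of the group's range and compared with Dixon's 95% limit. Of 39 such groups 3 passed, and chance alone passes about 1 in 20. Slc10a1 at infarction 3 weeks had 1 array at 221 against 279 to 287 in the others (gap 0.889). Slc24a2 at infarction 9 weeks had replicate 3 at 379 against 625 to 642 (0.949), the same array that read 586 for Slc22a6. Slc37a1 at banding 30 weeks had 1 at 1896 against 1995 to 2016 (0.83).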

How the results depend on the processing

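For the average effect the count of 3 members became 1 with the 5 models weighted equally and 2 without the hormone groups (Slc4a3 and Slc6a6), and ran from 0 to 4 with each array left out in turn. For banding the 3 became 1 with array weights and ran from 1 to 6 with each array left out, the 6 without banding sham 12 weeks replicate 4 and the 1 without banding sham 16 weeks replicate 4. The 4 calls in single groups became 2 after quantile normalization and 18 with array weights, and ran from 2 to 10. The 31 neonatal calls ran from 15 to 34. The rank sum count of 0 became 1 with a signed rank test and 1 after quantile normalization and ran from 0 to 1, the 1 without banding sham 12 weeks replicate 3. The count of 0 for the difference between models became 1 with array weights and 1 with ordinary analysis of variance and ran from 0 to 2, with 2 on leaving out replicate 4 of the banding sham at 6 weeks and 1 on leaving out Ditpa replicate 2. Over all probe sets, calls for the average went from 455 to 532 without the hormone groups. Those for banding went from 460 to 270 with array weights. The other changed counts here are given without the share of all probe sets, so they are not read as results about the members. The cause was not tested in any of these changes.

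A floor of 32, the brighter 4370 probe sets, the mean of a gene's probe sets and the adult controls fitted as 1 group kept each count they touch within 1.5 times. Of 42 gene results under all alternatives, 2143 of 2240 comparisons kept direction and side of the threshold, 88 lost the call, 9 gained it and 0 reversed. Of the 32 gene results called, 20 lost the call under at least 1 alternative and 12 kept it under every one run. Quantile normalization moved the share of higher among all probe sets called from 69.9% (318 higher, 137 lower) to 54.4% (259 and 217) for the average and from 62.4% to 45.4% for banding, while the members called stayed at 1 higher and 2 lower and went from 1 and 2 to 0 and 2. The replicate numbers of vehicle, angiotensin II and Ditpa did not pair the samples (correlations of -0.04, -0.06 and -0.08), and a replicate block there gave 3 members for the average and 31 for neonatal.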
